A study of Mus musculus with 80 samples.

Results

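DNA methylation was compared in serum between mouse embryonic stem cells (ESCs) that lacked all 3 TET enzymes (TET TKO, genotype TET1/2/3-/-) and their wild-type counterpart (TET WT). Both lines carried the same mixed background (C57/129/FVB), both were labelled ESC, and each was represented by 2 serum libraries of reduced representation bisulfite sequencing (RRBS), a method that reads cytosine methylation in CpG-rich restriction fragments. The genome was divided into 500-bp tiles, and a tile entered when it lay on an autosome and held 20 or more methylation calls at 3 or more cytosine positions in each of the 4 libraries. In all, 57374 tiles met this rule, of 377183 with any call in the 4 libraries and 4273345 with a call in any bisulfite library of the series. All coordinates refer to the build NCBIM37.

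TET proteins oxidise 5-methylcytosine to 5-hydroxymethylcytosine and further products, which opens a route by which methylation can be lost. In ESCs these enzymes are known to act at enhancers and at the borders of CpG islands, where methylated and unmethylated DNA meet. Bisulfite sequencing reads 5-hydroxymethylcytosine and 5-methylcytosine alike, so both counted as methylated here. The labels do not state whether the 2 libraries of a line came from separate cultures, and p-values therefore measure the spread between these libraries, which may be technical. The deletion itself could not be checked in RRBS data, and no expression data of these lines were analysed here.

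The promoters of 5 genes illustrate what follows. Zfp560 and Zfp263, which encode zinc finger proteins, were essentially unmethylated in TET WT and methylated in TET TKO. Spag8 (sperm-associated antigen 8) and Sycp1 (a protein of the synaptonemal complex that joins chromosomes in meiosis) rose from an intermediate level, and Tet2 stayed near 0 in both lines. The 250 bases before each gene start are printed 5′ to 3′ from RefSeq's promoter sequences (assembly GRCm38.p6), with every CG dinucleotide, the site of methylation, in capitals. Each sequence was located on NCBIM37 by matching the spacing of its CGs to the cytosines seen in the bisulfite data.
Zfp560 (chr9:20189603-20189852, minus strand): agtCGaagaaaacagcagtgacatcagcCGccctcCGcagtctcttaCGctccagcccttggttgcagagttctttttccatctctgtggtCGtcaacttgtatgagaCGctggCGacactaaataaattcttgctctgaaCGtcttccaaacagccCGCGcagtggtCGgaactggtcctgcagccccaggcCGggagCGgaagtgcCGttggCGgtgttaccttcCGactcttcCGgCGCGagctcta
Zfp263 (chr16:3743849-3744098, plus strand): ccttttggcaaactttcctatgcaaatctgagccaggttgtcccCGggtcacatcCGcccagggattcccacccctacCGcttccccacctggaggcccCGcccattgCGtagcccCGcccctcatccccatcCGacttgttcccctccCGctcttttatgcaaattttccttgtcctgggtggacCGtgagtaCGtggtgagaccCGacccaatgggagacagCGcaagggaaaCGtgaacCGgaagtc
Spag8 (chr4:43666467-43666716, minus strand): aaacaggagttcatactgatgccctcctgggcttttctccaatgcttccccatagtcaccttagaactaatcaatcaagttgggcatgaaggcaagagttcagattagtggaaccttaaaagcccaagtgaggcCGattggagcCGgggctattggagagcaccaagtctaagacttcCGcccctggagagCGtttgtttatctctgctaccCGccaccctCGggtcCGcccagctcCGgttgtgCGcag
Sycp1 (chr3:102740024-102740273, minus strand): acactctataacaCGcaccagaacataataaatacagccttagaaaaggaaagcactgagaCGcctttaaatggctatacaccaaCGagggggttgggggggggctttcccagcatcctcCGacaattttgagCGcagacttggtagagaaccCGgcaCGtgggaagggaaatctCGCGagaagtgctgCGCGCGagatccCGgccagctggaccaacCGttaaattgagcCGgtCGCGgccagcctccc
Tet2 (chr3:133207355-133207604, minus strand): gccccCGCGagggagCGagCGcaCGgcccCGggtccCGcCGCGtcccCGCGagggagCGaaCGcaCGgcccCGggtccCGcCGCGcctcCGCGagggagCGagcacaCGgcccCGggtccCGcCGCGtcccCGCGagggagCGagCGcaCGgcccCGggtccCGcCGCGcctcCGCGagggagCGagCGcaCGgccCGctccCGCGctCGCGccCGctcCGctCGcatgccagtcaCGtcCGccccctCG

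These stretches held 19 CGs in Zfp560, 14 in Zfp263, 9 in Spag8, 17 in Sycp1 and 51 in Tet2. Their full 300-base promoter sequences held 23, 20, 12, 21 and 57 in the same order. Of 32851 RefSeq promoters of 300 bases, 94.6% held at least 1 CG, and the median was 7. It was 25 for the promoters that could be placed, from which these 5 came. In the Zfp560 stretch, 9 cytosine positions had 5 or more calls in every library, and their median was 0% in both TET WT libraries against 61.1% and 88.2% in TET TKO. All 9 positions were higher in both TET TKO libraries than in either TET WT library. The same held at 4 of 4 positions in Zfp263 (0% and 0% against 50.0% and 83.3%), at 8 of 8 in Spag8 (14.9% and 9.77% against 71.0% and 69.3%) and at 6 of 6 in Sycp1 (41.2% and 29.2% against 90.9% and 71.4%). In Tet2, where 32 positions were covered, the median was 0% in all 4 libraries, and no position separated the lines. The other 4 genes are among those whose start tiles were called higher, and their stretches overlap those tiles. The agreement of their positions is therefore partly fixed by the choice.

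The 4 libraries held 16619345 and 14194069 calls in TET WT and 11046802 and 8386064 in TET TKO, and a tile had a median of 109, 94, 74 and 56 calls in the same order. Replicates correlated across tiles (Pearson r = 0.982 in TET WT and 0.983 in TET TKO, tiles not being independent replicates). Over all tiles, the difference between replicates had an SD of 6.25 points in TET WT and 7.08 in TET TKO. Between 10 and 90% methylation, replicates differed more than by sampling noise alone (chi-square over degrees of freedom 1.29 and 1.35). The share of calls per chromosome set TET WT apart. Relative to the wild-type line E14 in serum, chromosome 8 took 1.38 times and chromosome 14 1.49 times the share in TET WT, against 0.99 and 1.12 in TET TKO. Chromosomes 1 and 17 stood at 1.10 and 1.19 in TET WT and at 0.988 and 1.09 in TET TKO, and the other autosomes at 0.899 to 0.97 and 0.978 to 1.01. The chromosome 17 share included a stretch of extreme depth. Its tile chr17:39982501-39983000 alone held 131529 and 102968 calls in TET WT and 58372 and 43947 in TET TKO. The share without this stretch was not computed, so the value need not describe the whole chromosome. Values without chromosomes 8 and 14 are given beside the counts below.

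TET TKO cells carried more methylation than TET WT cells in serum. Over 650969 positions on autosomes, each read by at least 5 calls per library, the mean level was 14.8% in both TET WT libraries and 20.3% and 20.4% in TET TKO. The difference was 5.58 points and exceeded the spread within each line (SD 7.53e-05 points in TET WT and 0.0568 in TET TKO, n = 2 each). That spread depended on the averaging: the SDs were 0.577 and 0.189 points over pooled calls. Over each library's own positions they were 1.42 and 1.17 points. An exact two-sided permutation test over 2 against 2 libraries cannot go below p = 0.333, the value obtained. The size of the gain followed the positions that were averaged, from 4.52 points at positions with 10 or more calls to 10.1 points when each tile was weighted equally. On chromosome X, the gain was 3.80 points at 2790 positions.

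The gain came with a loss of intermediate methylation. In TET WT, 23.2% and 23.4% of tiles lay between 40 and 80%, and 9.91% and 9.82% at 80% or more. In TET TKO, the first class shrank to 15.8% and 16.1%, and the second grew to 26.1% and 26%. Unmethylated tiles (under 10%) remained the largest class, with 55.4% and 55.1% in TET WT and 48.1% and 47.8% in TET TKO. In each class, the values of the 2 libraries of a line lay closer to each other than to those of the other line.

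**Figure D1:**
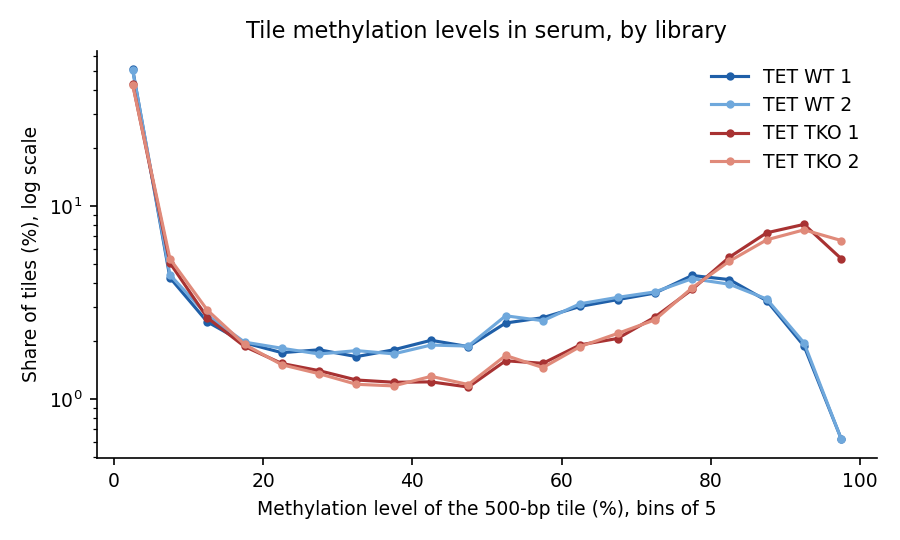
Share of the 57374 tiles (%, log scale) by methylation level in bins of 5 points, 1 line per library. Both TET TKO libraries lie below TET WT from about 20 to 75% and above it from 80% upward, where they hold 26.1% and 26% of tiles against 9.91% and 9.82%.

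Tile by tile, methylation levels were compared with a quasi-binomial logistic fit on the methylated and unmethylated calls, and calls needed 20 points or more between the pooled levels of the lines together with an adjusted p under 0.05 (Benjamini-Hochberg). By this measure, 11296 tiles were higher in TET TKO (19.7% of those tested) and 73 were lower (0.127%). Without the minimum difference, 18771 tiles were higher and 192 lower. The median gain of the higher tiles was 30.3 points (quartiles 24.8 and 38.8), from a median of 40.5% in TET WT to 77.8% in TET TKO. The lines did not overlap in 11275 of the 11296 higher tiles and in all 73 lower tiles. Among all tiles, 61.7% had both TET TKO libraries above both TET WT libraries, most of them by less than 20 points, and 2.86% had both below. Leaving out chromosomes 8 and 14 gave 10106 higher and 64 lower of 51711 tiles.

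The counts depended on the precision of the fit. Without TET WT replicate 1, 6997 tiles were called higher and 32 lower, and 38 lower without TET WT replicate 2. The fit shared information on the spread between tiles, and with each tile's own spread alone none was called, since 2 degrees of freedom remained, although 7364 passed an unadjusted p under 0.05. An edgeR fit of the same calls gave 11266 higher and 68 lower tiles, and limma on log2 ratios 4337 and 15.

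**Figure D2:**
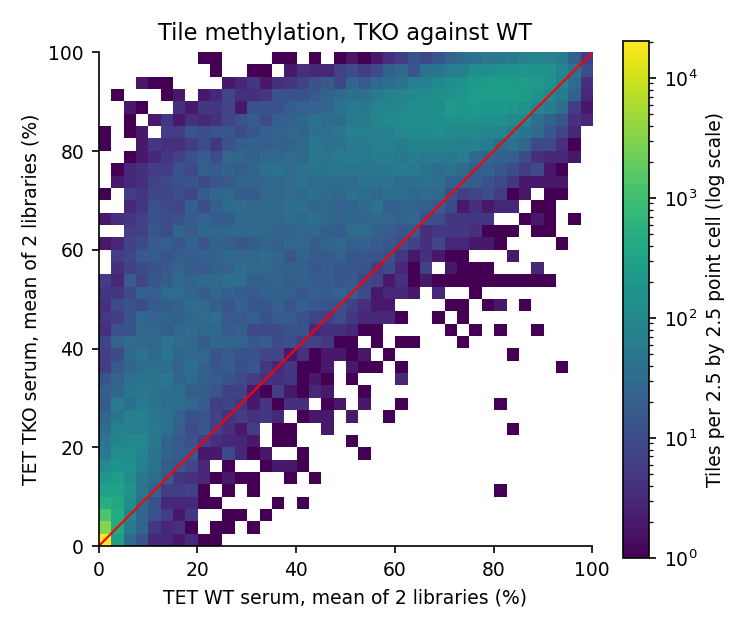
Methylation of each tile in TET WT (x axis, %) and TET TKO (y axis, %), means of 2 libraries, with the number of tiles per cell of 2.5 by 2.5 points on a log colour scale and the line of equality in red. Most tiles between 10 and 80% in TET WT lie above the line, and the densest cell is at 0 in both lines.

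The share of tiles called varied with the starting level. Among 6613 tiles at 10 to 40% in TET WT, 65.5% were called higher (28.1% with limma on log2 ratios), and their medians were 22.9% and 23.3% in TET WT against 52.7% and 53.1% in TET TKO. Among 13638 tiles at 40 to 80%, 42.0% were called, with medians of 64.5% and 64.4% against 84.8% and 85.0%. Tiles at 80% or more could not gain 20 points. Their 5430 members rose by a median of 5.73 points, from 86.1% and 86.2% to 92.5% and 92.6%, and 31 of them were called lower.

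Unmethylated tiles mostly stayed unmethylated. Of 31693 tiles under 10% in TET WT, 86.6% were under 10% in TET TKO too, 11.9% reached 10 to 40%, and 454 tiles reached 40 to 80%. Their medians were 0.408% and 0.515% in TET WT and 1.23% and 1.33% in TET TKO. Within this class, 1244 tiles (3.93%) were called higher, and 233 of them reached 50% or more. All 31693 tiles under 10% had a median of 119 calls in the library with the fewest, against 37 for the tiles at 10 to 40%.

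The share of tiles called varied with CpG content, to an extent that differed between levels in TET WT. CpG sites per tile were counted from all cytosines seen in any bisulfite library of the series. Tiles with 25 or more sites (CpG-dense tiles) were called higher in 2.12% of 21129 cases. The share was 23.2% at 15 to 24 sites, 35.1% at 10 to 14 sites and 34.4% at 5 to 9 sites. At 10 to 14 sites it was 20.6% without TET WT replicate 1, 22.5% without TET WT replicate 2 and 13.5% with limma on log2 ratios, which gave 0.824% in CpG-dense tiles. Within tiles under 10% in TET WT, the share called fell from 25.3% of 791 tiles at 5 to 9 sites to 16.3%, 6.12% and 0.574% in the next 3 classes. Within tiles at 10 to 40% it was 68.6% at 5 to 9 sites, 71.9%, 63.8% and, at 25 or more, 41.5%. Within tiles at 40 to 80% it varied little, from 39.9% at 5 to 9 sites to 43.0% at 10 to 14 and 38.5% at 25 or more. Levels in TET WT were not equal across CpG content within these classes. Under 10%, medians in TET WT were 2.17% and 2.33% at 5 to 9 sites and 0.35% and 0.433% at 25 or more. At 10 to 40%, they were 26.1% and 25.9% against 16.8% and 17.9%. CpG content was thus not compared at equal starting level. The shares called are descriptions over tiles, with no test between classes.

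**Figure D3:**
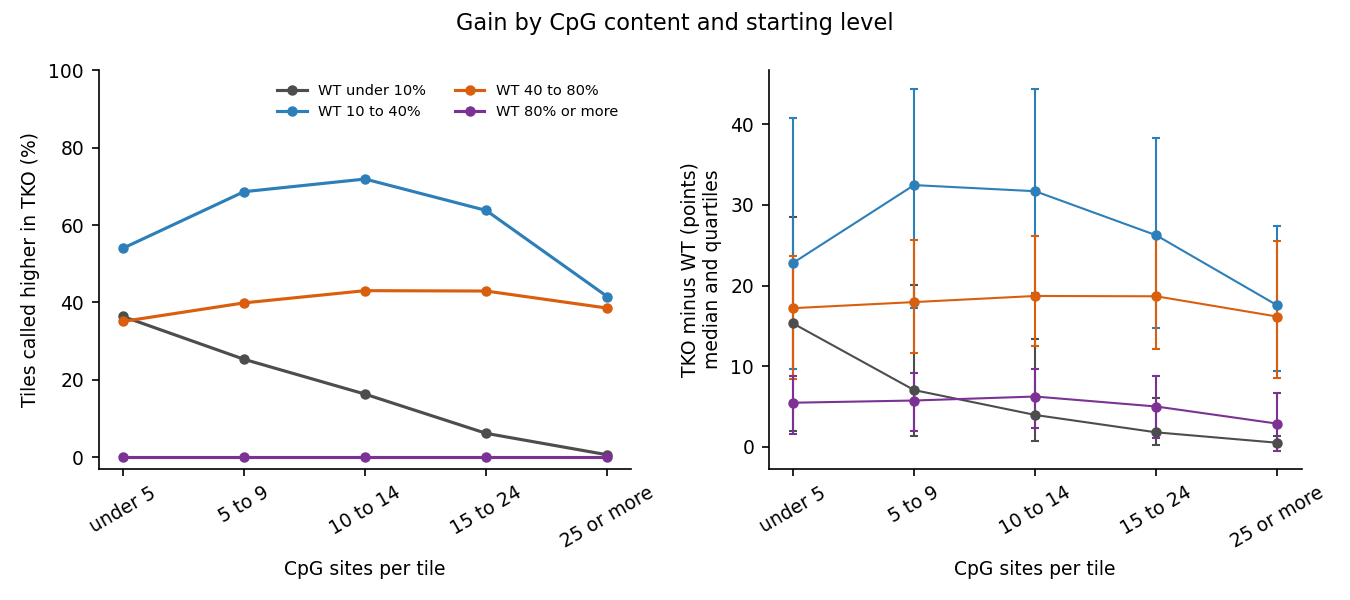
Share of tiles called higher in TET TKO (left, %) and TET TKO minus TET WT in points (right, median with quartiles as bars) against CpG sites per tile, with 1 line per class of TET WT level. In tiles under 10% in TET WT the share falls with CpG content to 0.574%, while in tiles at 40 to 80% it stays between 35.1% and 43.0%. Within a class, the level in TET WT still differs with CpG content.

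Gains were commoner beside CpG-dense tiles than inside them. Of tiles whose nearest CpG-dense tile was the adjacent one (up to 500 bp), 8.15% of 7088 were called higher. The share was 32.4% of 1131 tiles up to 1 kb, 41.1% of 1078 up to 2 kb, 42.6% of 1672 up to 4 kb and 34.6% of 25276 farther away. The starting level rose with this distance, from a median of 0.645% and 0.917% in TET WT at 500 bp to 7.41% and 7.14% at 1 kb, 22.3% and 23.1% at 2 kb, and 60.0% and 60.0% beyond 4 kb. In TET TKO, the median was already 25% in both libraries at 1 kb and 55.0% in both at 2 kb. Among tiles under 10% in TET WT, the share called was 3.27% at 500 bp, 13% at 1 kb, 22.4% at 2 kb, 19.7% of 452 tiles at 4 kb and 17.9% of 3719 farther away. At 10 to 40% it was 49.0%, 65.0%, 68.1%, 75.3% and 69.8% in the same order. At 40 to 80% it ran the other way, with 51.1% of 141 tiles, 50.3%, 48.3%, 47.5% and 41.4%. Starting levels still differed within these classes. At 40 to 80%, medians in TET WT were 54.5% and 54.2% at 500 bp and 65.1% and 65.0% farther away. Under 10%, they were 0.344% and 0.585% at 500 bp and 2.78% and 2.74% at 2 kb. Distances were thus not compared at equal starting level.

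H3K9me2, a histone mark of silent chromatin to which the maintenance factor UHRF1 binds, was read in E14 serum as the calls of the bound fraction relative to input in the surrounding 10 kb. From the lowest to the highest of 5 equal classes of tiles by H3K9me2, the share called higher rose from 12.8% to 26%, together with the median level in TET WT (0.530% and 0.658% against 65.0% and 64.8%). At 40 to 80% in TET WT the order was the opposite, with 52.2% called in the lowest class and 37.7% in the highest. Starting levels still differed there, with medians in TET WT of 58.8% and 58.9% in the lowest class and 66.7% and 66.1% in the highest. At 10 to 40% the shares called were 66.6% and 59.1%, and under 10% they were 3.13% and 6.79%. The methylation of the surrounding 10 kb in E14 input gave 47.4% in its lowest class at 40 to 80%, 50.8% in the next and 39.8% in its highest. At 10 to 40% its order was the opposite, with 60.1% in the lowest and 67.0% in the highest class. Both readouts came from another line, and neither was compared at equal starting level. By methylation of the surrounding 10 kb, medians in TET WT at 40 to 80% were 56.8% and 56.2% in the lowest class and 66.7% in both libraries in the highest.

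Single positions were compared in the 3313 of 11296 higher tiles that had 5 or more positions covered in every library. Of these, 79.0% had a higher level in TET TKO at every position, and in 31 the rise of 20 points or more was limited to at most 1 position. The first share was 4.56% in 27295 tiles that were not called. This contrast is largely fixed by the choice, since tiles were called for a rise in the same calls. The uncalled tiles also held more positions (median 13 against 6), and equal levels counted as not higher. Most called tiles stood alone: the 11296 tiles formed 10448 runs of neighbouring covered tiles, of which 9700 were 1 tile long and 81 held 3 or more. Only 3276 called tiles had a covered neighbour within 1000 bp, as RRBS reads scattered fragments.

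The longest runs held 5 tiles. The first (chr4:141029001-141032500) averaged 37.0% and 39.3% in TET WT and 78.0% and 73.6% in TET TKO. The second (chr7:53048501-53051000) averaged 36.3% in both TET WT libraries and 64.6% and 64.3% in TET TKO. The third, of 4 tiles (chr12:92885501-92887500), showed the steepest change, from 12.4% and 10.9% to 66.2% and 63.7%. In each run, the lowest tile of TET TKO lay above the highest of TET WT.

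The 10 largest gains among deeply read tiles (50 or more calls and 6 or more positions in each library) started at means of 0.134% to 21.3% in TET WT and reached 79.1% to 94.2% in TET TKO. The tile with the largest gain (chr11:97929001-97929500) was at 9.72% and 5.45% in TET WT and at 100% and 88.5% in TET TKO, a difference of 87.1 points (adjusted p = 3.99e-12, quasi-binomial fit). Its neighbour (chr11:97928501-97929000) went from 8.91% and 2.38% to 83.2% and 83.3%. The second largest gain (chr1:140738001-140738500) held 31 CpG sites and rose from 0.269% and 0% to 82.6% and 86.4%. The 10 gains lay between 68.6 and 87.1 points. In each of the 10, every position with 5 or more calls rose by 20 points or more, 4 to 17 positions a tile.

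None of these 10 tiles lay within 1 kb of a gene start that could be placed. Their levels in E14 serum were lower than in TET TKO throughout, from 1.94% at the chromosome 1 tile to 72.8% at chr11:102175001-102175500. The UHRF1 WT line, another wild-type line with 1 usable serum library, stood above TET TKO in 7 of the 10 and ranged from 48.2% to 98.5%. In TET TKO, the gained methylation was still present after transfer to 2i, the serum-free medium with MEK and GSK3 inhibitors in which ESCs lose methylation. At chr1:140738001-140738500, the TET TKO libraries held 66.5% and 67.0% after 96 h and 65.7% and 48.6% after 168 h, while the TET WT libraries were at 0% and 0.323% after 96 h and at 0% in the library of 168 h. At chr4:116955501-116956000, by contrast, TET TKO fell from 76.5% and 83.3% in serum to 20.6% and 9.84% after 168 h. These 2i values are descriptions.

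Gene starts were assigned where a RefSeq promoter could be placed by its CGs, which was possible for 9256 genes with CpG-rich promoters. Few placed promoters were called. Of 7550 tiles that held such a start, 100 were called higher (1.32%) and 1 lower, against 19.7% of all tiles. Their median was 0.381% in TET WT and 0.828% in TET TKO, and 97.6% were under 10% in TET WT, of which 31 were called. Of the 184 start tiles at 10% or more in TET WT, 69 (37.5%) were called. Tiles within 1 kb of a start and at 10 to 80% in TET WT were called in 45.8% of 616 cases, against 49.8% of 19635 cases farther away.

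The promoters that gained had fewer CGs. The median was 15 CGs in 300 bases for genes whose start tile was called higher and 27 for the other genes with a start tile. They also tended to belong to genes with little RNA in E14 serum, where the median log2 value was -3.06 for 61 genes with a called start tile and 2.36 for genes with a start tile that was not called. This is a comparison across genes in another line, and the RNA of the TET lines was not analysed here. Of the 100 called start tiles, 69 were at 10% or more in TET WT, as were 184 of all 7550 start tiles. Neither CG content nor RNA was compared at equal starting level, so both may belong to partly methylated promoters in general.

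**Figure D4:**
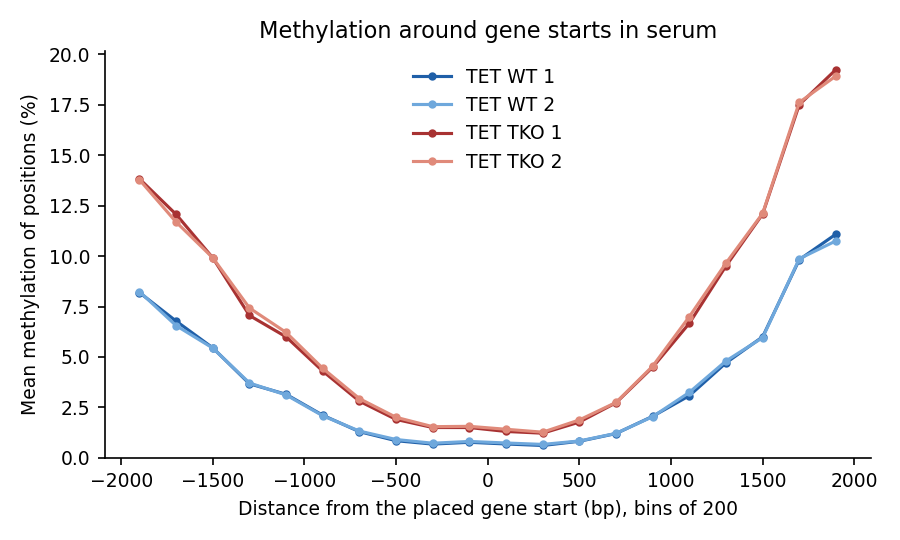
Mean methylation (%) of cytosine positions with 5 or more calls in all 4 libraries by distance from the placed gene start (bins of 200 bp, negative upstream), 1 line per library. All 4 libraries are under 2% at the start, and TET TKO rises faster to either side, to 19.2% and 18.9% in the bin centred 1900 bp downstream against 11.1% and 10.8% in TET WT.

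Methylation around the start formed a trough in both lines. In the 200 bp downstream of the start, the mean was 0.687% and 0.736% in TET WT and 1.31% and 1.42% in TET TKO. The difference of the lines was 0.650 points there, 0.608 points in the bin centred 300 bp downstream, 2.47 points in that centred 900 bp downstream and 8.17 points in that centred 1900 bp downstream. Upstream, it was 2.27 points at 900 bp and 5.59 at 1900 bp.

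Among start tiles with 50 or more calls and 6 or more positions, Zfp560 showed the largest gain. Its tile (chr9:20189501-20190000), with 38 CpG sites, was at 1.76% and 0.898% in TET WT and at 57.7% and 73.4% in TET TKO, a difference of 63.9 points (adjusted p = 1.59e-15, quasi-binomial fit). The Zfp263 tile (chr16:3744001-3744500) was at 0.212% and 0% against 55.7% and 65.0% (adjusted p = 8.22e-17). The Zfp560 tile stood at 1.68% in E14 serum and 25.7% in the UHRF1 WT line, and the Zfp263 tile at 0.282% and 2.58%. Both kept methylation in 2i in TET TKO, with 44.4% and 49.4% for Zfp560 and 25.5% and 22.8% for Zfp263 after 168 h. They were chosen for the largest depth among tiles with at least 50 calls and 6 positions in each library that were under 5% in both TET WT libraries and at 50% or more in both TET TKO libraries, conditions met by 4 tiles outside chromosome 18, among them the chromosome 1 tile above. Of 112 start tiles of zinc finger genes named Zfp with a number, 3 were called higher (2.68%), and their median difference was 0.447 points, against 0.425 for all start tiles.

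Other start tiles with large gains are given with what is known of their genes. Spag8 rose from 18.3% and 17.2% to 70.9% in both TET TKO libraries. Gpat2, a glycerol-3-phosphate acyltransferase, rose from 29.9% and 37.0% to 76.5% and 73.6%. Smc1b, the meiotic cohesin subunit, rose from 24.2% and 19.8% to 54.7% and 45.2%. In all 3 the lines were far apart compared with the replicates.

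Nrsn2, a vesicle protein of neurons, rose from 4.71% and 11.4% to 42.2% and 44.4%. Gstm5, a glutathione S-transferase, rose from 8.28% and 10.7% to 36.5% and 43.5%. Il11, a cytokine, rose from 33.0% and 23.0% to 62.7% and 51.2%. Odf2l rose from 7.52% and 7.14% to 49.1% and 34.6%, with a wider spread between the TET TKO replicates. These genes were picked by the size of the difference after the values were seen, so their number supports no theme. Vmn2r29, Rpl39l, Aldoart2, Naa11 and Timm8a2, also among the 20 largest, have related genes elsewhere in the genome. Whether their reads were divided among copies was not tested. The Aldoart2 tile missed the adjusted p without TET WT replicate 1 (0.0947) and without TET TKO replicate 2 (0.0808). With limma on log2 ratios, the start tiles of Smc1b, Il11, Vmn2r29, Rpl39l, Aldoart2, Naa11 and Timm8a2 missed the adjusted p (0.0538 to 0.111).

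**Figure D5:**
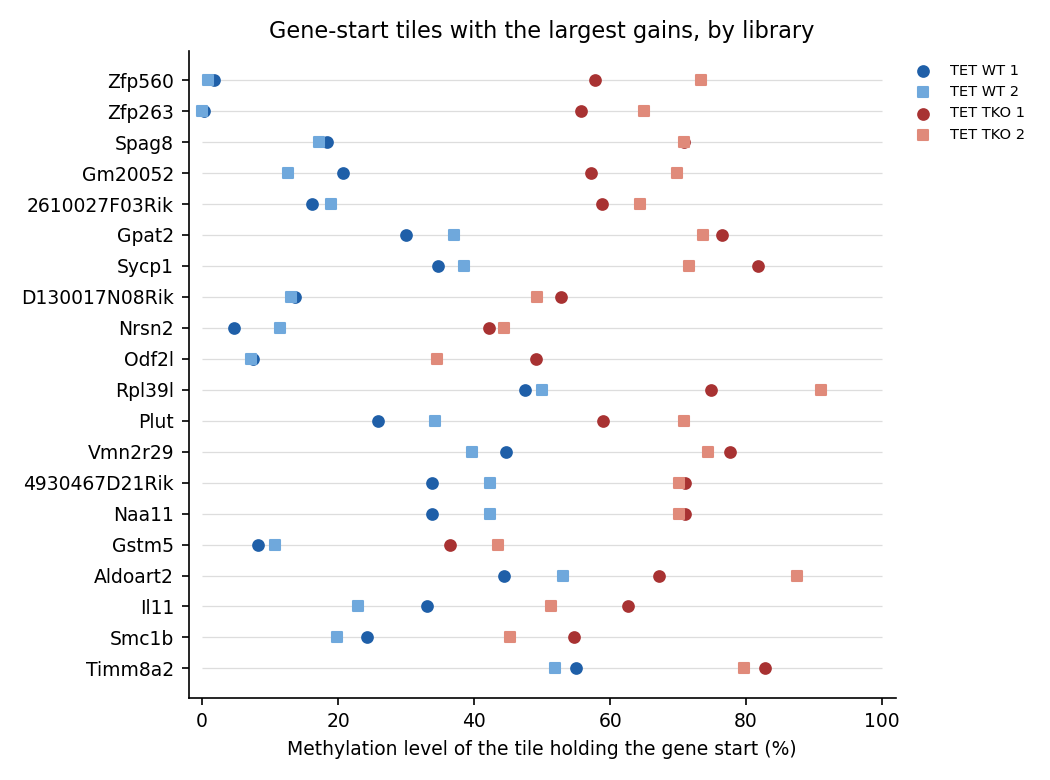
Methylation level (%) of the tile holding the gene start in each of the 4 libraries for the 20 genes with the largest gains (50 or more calls and 6 or more positions in each library). Both TET TKO libraries lie to the right of both TET WT libraries for all 20 genes, and Zfp560 and Zfp263 start from under 2%. Naa11 and 4930467D21Rik share 1 tile.

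Many genes of the germ line are known to have promoters that are methylated in other cells. Of 15 such genes, 11 had a tile within 1 kb of a placed start, and 3 of their 20 tiles were called higher, in Sycp1, Slc25a31 and Tex101. The median difference of the 20 tiles was 11.3 points from a median of 38.2% in TET WT, against 3.84 points over all tiles, 28 points over all tiles at 10 to 40% in TET WT and 18.5 points over those at 40 to 80%. For comparison, calls were made in 19.7% of all tiles, 2.55% of all tiles within 1 kb of a placed start and 45.8% of those among them at 10 to 80% in TET WT. The Sycp1 start tile (chr3:102740001-102740500) went from 34.6% and 38.5% to 81.7% and 71.5% (adjusted p = 2.71e-08, quasi-binomial fit), while the 2 tiles downstream rose by 11.3 and 14.9 points. Tex101, a cell surface protein of germ cells, went from 73.4% and 77.0% to 98.4% and 90.0%. Slc25a31, the testis form of the ADP/ATP carrier, went from 50.0% and 39.0% to 77.8% and 60.7% in the tile 208 bp past its start, from 28 to 68 calls. Its start tile, with 157 to 329 calls, had 41.3% and 44.2% in TET WT and 42.8% and 51.0% in TET TKO and was not called (adjusted p = 0.439, quasi-binomial fit). The calls of Tex101 and Slc25a31 rested on few points: without TET TKO replicate 1 their differences were 15 and 14.8 points (adjusted p = 0.163 and 0.384, quasi-binomial fit). Tex101 also missed the adjusted p without TET WT replicate 1 (0.0833), and Slc25a31 without TET WT replicate 1 (0.0844) or replicate 2 (0.163). Both missed it with limma on log2 ratios (0.087 and 0.142).

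Several germ line promoters passed the adjusted p with less than 20 points. Mael, which acts in the piRNA pathway, went from 14.5% and 19.4% to 40% and 29.9%. Tdrd1, a Tudor domain protein of the same pathway, went from 20.1% and 22.2% to 41.3% and 37.8%. The start tile of Dazl, a germ cell RNA-binding protein, went from 56.8% and 56.5% to 70.6% and 66.1%. In Sycp3, a partner of Sycp1, the tile 169 bp past the start had 55.7% and 43.6% in TET WT and 45.3% and 33.1% in TET TKO, which did not pass the test (adjusted p = 0.076). In the list as a whole, 8 of 20 tiles passed the adjusted p, all of them higher, where 32.7% of all tiles passed it and were higher.

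Most covered tiles near pluripotency and lineage genes had low levels in both lines. Of 12 pluripotency genes, 4 (Sox2, Klf4, Klf2 and Tfcp2l1) had covered tiles, and none of 14 was called, where 2.55% of all tiles within 1 kb of a placed start were called higher. Their median was 0.566% in TET WT against 1.29% in TET TKO. The start tile of Tfcp2l1, a factor of the naive state, was at 0% in both TET WT libraries and 3.15% and 3.12% in TET TKO, and the Sox2 start tile at 0.610% and 2.47% against 0.746% and 1.64%. Of 13 tiles near Lhx2, Hoxd13, Pax6 and Cdx2, 1 was called. It lay 120 bp before a start of Pax6, the eye and brain regulator, and went from 10.5% and 11.2% to 38.8% and 38.3% (adjusted p = 7.67e-06, quasi-binomial fit). The tile 673 bp past a start of Lhx2 (chr2:38207501-38208000), a regulator of forebrain and eye development, rose from 3.28% and 3.31% to 21.7% and 17.6% and passed the adjusted p alone (0.000149, quasi-binomial fit).

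Of imprinted genes, which are expressed from 1 parental copy, 7 had covered tiles, with a median of 1.30% in TET WT. None of these 24 tiles was called, against the 2.55% of tiles within 1 kb of a placed start. The adjusted p alone was passed by 6 of the 24, and by 33.1% of all tiles. Inpp5f rose from 0.554% and 0.530% to 11.7% and 8.36% in the tile 122 bp past its placed start. The start tile of Plagl1 was at 7.40% and 10.6% in TET WT and 14.9% and 28.1% in TET TKO, although E14 had 88.2% there. Many imprinted genes had no placed start, and no statement covers them.

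Of 9 genes for enzymes and cofactors that write or remove methylation, 7 (Dnmt1, Dnmt3a, Dnmt3b, Uhrf1, Tdg, Tet2 and Tet3) had covered tiles. Across their 19 tiles, the median was 0.392% in TET WT against 0.704% in TET TKO, near the 0.381% and 0.828% of all start tiles, and 1 was called, against 2.55% of all tiles within 1 kb of a placed start. The Tet2 start tile had 0% in both TET WT libraries and 1.65% and 0.901% in TET TKO, and that of Dnmt3b 0.117% and 0.267% against 0.119% and 0.302%. The called tile lay 260 bp before the start of Uhrf1, which recruits the maintenance methyltransferase. This tile (chr17:56442001-56442500) went from 14.5% and 18.8% to 49.0% and 55.6% (adjusted p = 0.000424, quasi-binomial fit). It stood at 51.0% in E14 and 77.1% in the UHRF1 WT line, so that TET WT had the lowest level of these lines. The tile at the start was at 0.935% and 0% against 0% and 2.08%.

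Of the 73 lower tiles, 83.6% lay more than 4 kb from a CpG-dense tile, as did 77.5% of the higher tiles and 90.0% of all tiles at 40% or more in TET WT. Their medians were 75.6% in TET WT and 42.3% in TET TKO, and 43 of them were between 30 and 70% in TET TKO. The largest fall among tiles with 50 or more calls and 6 or more positions in each library (chr3:129364501-129365000, chromosome 18 left out) was at 77.0% and 91.8% in TET WT and 42.7% and 36.8% in TET TKO, and all 7 positions fell by 20 points or more. It remained lower in TET TKO at 96 h of 2i, with 26.4% and 23.1% against 70.8% and 74.8%. The tile at chr14:44877001-44877500 went from 35.6% and 32.6% to 5.06% and 6.25%. The other tiles named by size (chr15:65569501-65570000, chr1:131333001-131333500 and chr12:20851001-20851500) fell by 25.7, 24.7 and 23.8 points, and each missed the adjusted p without TET WT replicate 1 (adjusted p = 0.0951, 0.153 and 0.0622, quasi-binomial fit) and with limma on log2 ratios (0.102, 0.155 and 0.127). The chromosome 12 tile also missed it without TET WT replicate 2 (0.0551) and fell by 16.1 points without TET TKO replicate 2.

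Only 2 lower tiles lay within 1 kb of a placed start. At the start of Clcn4 (chr7:7252001-7252500), a chloride transporter gene, the level was 26.6% and 23.3% in TET WT, from 2366 and 1954 calls, and 1.30% and 1.72% in TET TKO, from 460 and 349 calls. E14 had 37.0% there and the UHRF1 WT line 1.11%. The second tile (chr13:55423501-55424000) lay 85 bp past the start of Prelid1 and 160 bp before that of Rab24. It was at 53.3% and 50.0% in TET WT and 29.7% and 25% in TET TKO.

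The level of the higher tiles was set beside other wild-type lines in serum. Of the 10917 higher tiles also covered in E14 and in the 1 usable library of UHRF1 WT, the median was 40.4% in TET WT, 62.2% and 63.0% in the E14 libraries, 77.7% in TET TKO and 91.8% in UHRF1 WT. E14 was above TET WT in 95.4% of them and below TET TKO in 89.2%, and UHRF1 WT was above TET TKO in 84.2%. Over all tiles covered in these lines, E14 was above TET WT in 81.9% and UHRF1 WT above TET TKO in 65.4%. Tiles were called for being low in TET WT or high in TET TKO, so that the comparison with E14 is partly fixed by the choice. With 1 line of each genotype, line and genotype cannot be told apart.

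Chromosomes gave like gains. In tiles at 10 to 80% in TET WT, the median gain ran from 18.6 points on chromosome 1 to 21.9 on chromosome 19, with 20.7 on chromosome 8 and 19.7 on chromosome 14, where the share of calls differed between the lines. The share of tiles called higher ran from 16.3% to 22.5% over the 19 autosomes.

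The higher tiles were followed to 96 h in 2i. Of the 6871 higher tiles covered in the 8 libraries of serum and 96 h, TET TKO was above TET WT at 96 h in 96.8%, and by 20 points or more in 56.5%. Over all 43271 tiles covered in these libraries, TET TKO was above TET WT at 96 h in 68.3% and by 20 points or more in 11.2%, and the median difference was 0.653 points. The medians of the 6871 higher tiles fell from 38.3% to 20.6% in TET WT and from 75.9% to 48.1% in TET TKO, and the median difference from 29.8 to 22.1 points. Since these tiles were chosen for their difference in serum, a smaller difference at 96 h is partly fixed by the choice. The difference on the logit scale changed between serum and 96 h in 22 of 43271 tiles (0.0508%) at an adjusted p under 0.05 (interaction in the quasi-binomial fit), 10 of them among the higher tiles. The count was lower without each of the 8 libraries in turn, in fits that left a group with a single library. It fell most without TET TKO replicate 1 of 96 h, which held 12353834 calls against 5594622 in replicate 2. Whether these calls rested on any single library, or fell with the loss of precision, was not tested.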

How the data were processed

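The bisulfite files as deposited give, for every cytosine with a read, counts of methylated and of unmethylated calls and the percent methylated. The submitters' processing notes name Trim Galore 0.3.5, Bismark 0.12.3 and Bowtie2, and since some positions exceed the length of chromosome 1 in GRCm38, coordinates were taken as NCBIM37. Read filters and handling of PCR copies were not given in the sources used here. Calls may thus come from copies of 1 molecule. The authors also deposited log2 expression values for E14, corrected for gene length and depth, used here only beside promoters. No unassigned columns were left.

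Calls were summed per 500-bp tile and library. Groups came from the labels. Each tile was fitted as a quasi-binomial logistic model in R 4.3.3, with the dispersion moderated towards a trend on the mean level (squeezeVar, limma 3.58.1), a quasi-likelihood F test and Benjamini-Hochberg adjustment over all tiles. The prior was estimated from tiles with 5 or more expected methylated and unmethylated calls per library, and dispersions were floored at 1. Both choices were added after a first version failed on simulated data. With 200 of 57374 tiles changed by 35 points at a dispersion of 1.32, this fit called 168 of them and 3 unchanged tiles. At a dispersion of 2 it called 141 of them and 1 unchanged tile. The simulation changed far fewer tiles than were called in the data. Since the trend ran from 1.18 to 1.64 with 27.9 prior degrees of freedom, a tile's own replicates weighed little. edgeR 4.0.16 gave an alternative count model.

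RefSeq promoter sequences (GRCm38.p6, 300 bases) were placed on NCBIM37 without using any GRCm38 coordinate. The spacing of their CGs was matched to the cytosines observed in 58 bisulfite libraries, with 16 or more observed cytosines, 97% of them on a CG of the sequence. Of 32851 sequences, 10391 matched 1 place, 99.8% of these on the chromosome RefSeq names, and 10362 were kept. Other bases were not compared, and CpG-poor promoters could not be placed. The named tiles were the 10 largest gains and 5 largest falls with 50 or more calls, 6 or more positions and no overlap of the lines, the 3 longest runs and the 3 deepest tiles that rose from under 5% to 50% or more, none on chromosome 18. Start tiles were named by size afterwards. The tiles, gene lists and rules were chosen with earlier results of these data known.

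Alternatives covered depth and position minimums, the dispersion, edgeR, limma, thinning, all 15 TET libraries, a replicate block and leaving out each library.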

Additional observations from a re-analysis of the deposited data

Results flagged for a closer look

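The difference between TET TKO and TET WT changed between serum and 96 h of 2i in 22 of 43271 tiles, by the interaction term of the quasi-binomial fit at an adjusted p under 0.05, and 4091 tiles had an unadjusted p under 0.05. The first by p lay at chr17:39983001-39983500 (adjusted p = 0.000899, interaction in the quasi-binomial fit). It had 8.04% and 8.59% in TET WT and 2.60% and 2.66% in TET TKO in serum, and 5.85% and 5.74% against 1.23% and 1.27% at 96 h. In points, the difference moved from -5.66 in serum to -4.56 at 96 h. On the logit scale, which the test used, it was larger at 96 h than in serum. In serum this tile held 96456 and 77181 calls in TET WT and 43663 and 32470 in TET TKO. The medians over all tiles were 109, 94, 74 and 56 calls in the same order. Whether such depth came from many copies of a sequence was not tested. The 3 neighbouring tiles of like depth that passed too belong to the same stretch and are not separate results.

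The second lay at chr5:123607001-123607500 (adjusted p = 0.000899, interaction in the quasi-binomial fit). TET WT rose from 9.55% and 5.99% in serum to 20.6% and 25.2% at 96 h, while TET TKO had 58.2% and 53.9% in serum and 29.1% and 28% at 96 h. The third lay at chr13:120277001-120277500 (adjusted p = 0.00102, interaction in the quasi-binomial fit), with 60.2% and 59.4% against 75.5% and 73.0% in serum and 60.6% and 60.7% against 64.1% and 66.2% at 96 h. Of the 22 tiles, 15 had a difference of larger size in serum when measured in points, not on the logit scale of the test. The 15 include all tiles of the chromosome 17 stretch, where the logit difference was larger at 96 h.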

How the results depend on the processing

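The gain in mean level was positive under every averaging tried. It was 7.07 points at positions with 1 or more calls, 4.52 with 10 or more, 5.37 over pooled calls, 10.1 over tiles, 5.86 over each library's own positions and 3.80 on chromosome X, and 5.54 to 5.62 points without each library in turn. Called tiles in all, higher and lower numbered 2855, 2843 and 12 at 50 calls per tile, 5397, 5373 and 24 at 6 positions, 4352, 4337 and 15 with limma on log2 ratios, 5618, 5592 and 26 with all 15 TET libraries, 18963, 18771 and 192 with no minimum difference, and 5809, 5784 and 25 with a minimum of 30 points. They were 0, 0 and 0 with each tile's own dispersion, which left 2 degrees of freedom. Fewer tiles were tested at 50 calls (30227), at 6 positions (39396) and with 15 libraries (39358). Lower tiles numbered 114 at 10 calls per tile, 46 after thinning to 8386064 calls and 125 with a minimum of 10 points. Without each library in turn the counts ran from 7029 to 9460 in all, 6997 to 9410 higher and 32 to 50 lower.

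Replicate numbers did not pair the samples (correlation of deviations -0.00345), and a replicate block gave 11463 called tiles, 11390 higher and 73 lower. The interaction count ran from 0 to 20 without each of the 8 libraries in turn, chosen after seeing the data, as was leaving out chromosomes 8 and 14. Of 43 named results, none changed direction. With each tile's own dispersion none of the 43 passed, and with limma 14 did not pass. The tile past the start of Slc25a31 also missed the adjusted p with 15 libraries (0.0595) and after thinning (0.0832), and the Tex101 tile differed by 14.8 points as a mean over positions. In the shallowest library a tile had a median of 56 calls.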
